A study of Mus with 96 samples.

Results

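The liver stores glucose as glycogen when food is plentiful and releases it to the blood when food is scarce, either from glycogen or by gluconeogenesis, the making of glucose from lactate, amino acids, and glycerol. Expression of 9 mouse genes on this route was examined across the day. Pck1, G6pc, Fbp1, Slc37a4, Slc2a2, Ppargc1a, and Pygl were grouped as glucose output genes, and Gys2 and Gckr as genes of glucose storage and use. Slc2a2 and Gckr fit these groups only in part, by the roles given below. The 9 genes were taken by name from a table of 55487 genes, each name matched 1 row, and all 9 were among the 15548 genes that passed the filter of at least 100 counts over all libraries. Pck1 encodes the cytosolic PEPCK that starts gluconeogenesis from oxaloacetate, Fbp1 the fructose bisphosphatase of the same pathway, and G6pc the catalytic subunit of glucose-6-phosphatase, whose substrate is carried into the endoplasmic reticulum by the transporter Slc37a4. Slc2a2 encodes GLUT2, through which glucose crosses the hepatocyte membrane, Ppargc1a the coactivator PGC-1α, which raises transcription of gluconeogenic genes during fasting, and Pygl the liver glycogen phosphorylase. Gys2 encodes liver glycogen synthase and Gckr the regulatory protein that holds glucokinase in the nucleus until glucose or fructose rises. In mice, which feed mostly at night, these transcripts follow feeding, insulin, glucagon, glucocorticoids, and the clock of the hepatocyte itself.

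Liver RNA of 96 mice on a C57BL/6J background was read by BRB-seq, a barcoded method that counts only the 3′ portion of each mRNA, so that expression is compared between livers and not between genes. Mice labelled Hep-Bmal1KO (AlbCre/+ Bmal1flx/flx) carry Cre under the albumin promoter, which deletes the clock factor Bmal1 (Arntl) in hepatocytes and leaves it in the other cells of the liver, and their littermates labelled Hep-Bmal1WT (Alb+/+ Bmal1flx/flx) carry the same floxed alleles without Cre. Mice of both sexes, 8 to 10 weeks old, were kept in 12 hours of light and 12 hours of dark. For 2 weeks they ate normal chow (NC) or a diet rich in fat and deficient in choline (cdHFD). The cdHFD held 60% fat against 14% in NC, 31% carbohydrate against 59%, and 9% protein against 27%. For cdHFD the paper also lists cholesterol and methionine contents, so the diets differ in more than fat and choline. For each genotype and diet, 24 livers were collected, 4 at each zeitgeber time (ZT, hours after lights on) 2, 6, 10, 14, 18, and 22, with 2 males and 2 females except for 3 males and 1 female in Hep-Bmal1WT on cdHFD at ZT 14. Separate animals make the replicates. The questions were how the genotype changed these transcripts on each diet, how the diet changed them, and whether their daily rhythm differed.

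Depth was 1861740 to 9718615 counts on genes per library, with a median of 6412078, and the 6 hepatocyte markers (Alb, Apoa1, Ttr, Serpina1a, Cyp2e1, and Tat) were detected in all 4 combinations of genotype and diet. A label check placed each library between the medians of both genotypes at its own diet and ZT, where 0 stands for the other Hep-Bmal1WT libraries and 1 for the other Hep-Bmal1KO libraries. By the clock genes as well as by 20 further genes, 7 of the 96 libraries lay nearer the genotype opposite to their label: 4 labelled Hep-Bmal1WT (NC ZT 6 replicate 2, NC ZT 18 replicate 4, cdHFD ZT 10 replicate 3, and cdHFD ZT 14 replicate 1, at 0.880 to 1.70 on the clock genes) and 3 labelled Hep-Bmal1KO (NC ZT 6 replicate 4, NC ZT 10 replicate 3, and cdHFD ZT 14 replicate 1, at -0.169 to -0.0889). All libraries keep their label below, and results are also given without these 7, a choice that widens any difference between the genotypes in part by its construction. Arntl itself, the targeted gene, did not pass the test of genotype over the day (log2 fold change 0.02 ± 0.25 SE on NC, edgeR adjusted p = 0.98, and -0.50 ± 0.20 on cdHFD, adjusted p = 0.10), and counts of the 3′ end give no check of the deletion. On NC its daily range was wide in Hep-Bmal1WT, from 20.2 CPM at ZT 2 to 0.748 CPM at ZT 10. It was narrow in Hep-Bmal1KO, from 9.83 CPM at ZT 2 to 5.74 CPM at ZT 14. On cdHFD the range was 21.2 CPM at ZT 22 to 0.917 CPM at ZT 6 in Hep-Bmal1WT. In Hep-Bmal1KO on cdHFD it was 9.15 CPM at ZT 18 to 2.43 CPM at ZT 10, so Arntl was not flat there.

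Gene spans are given from the RefSeq annotation of the GRCm38.p6 assembly; the build named for the counts is mm10, the same assembly series, and no sequence was read. Gckr is at chr5:31297266-31327302 and Ppargc1a at chr5:51454249-52115853 on the same chromosome. Pck1 spans chr2:173153073-173159274, G6pc chr11:101367716-101377903, Fbp1 chr13:62864753-62888298, and Slc37a4 chr9:44396946-44402966. Slc2a2 is found at chr3:28697903-28728361, Gys2 at chr6:142422612-142473130, and Pygl at chr12:70190815-70227683.

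**Figure D1:**
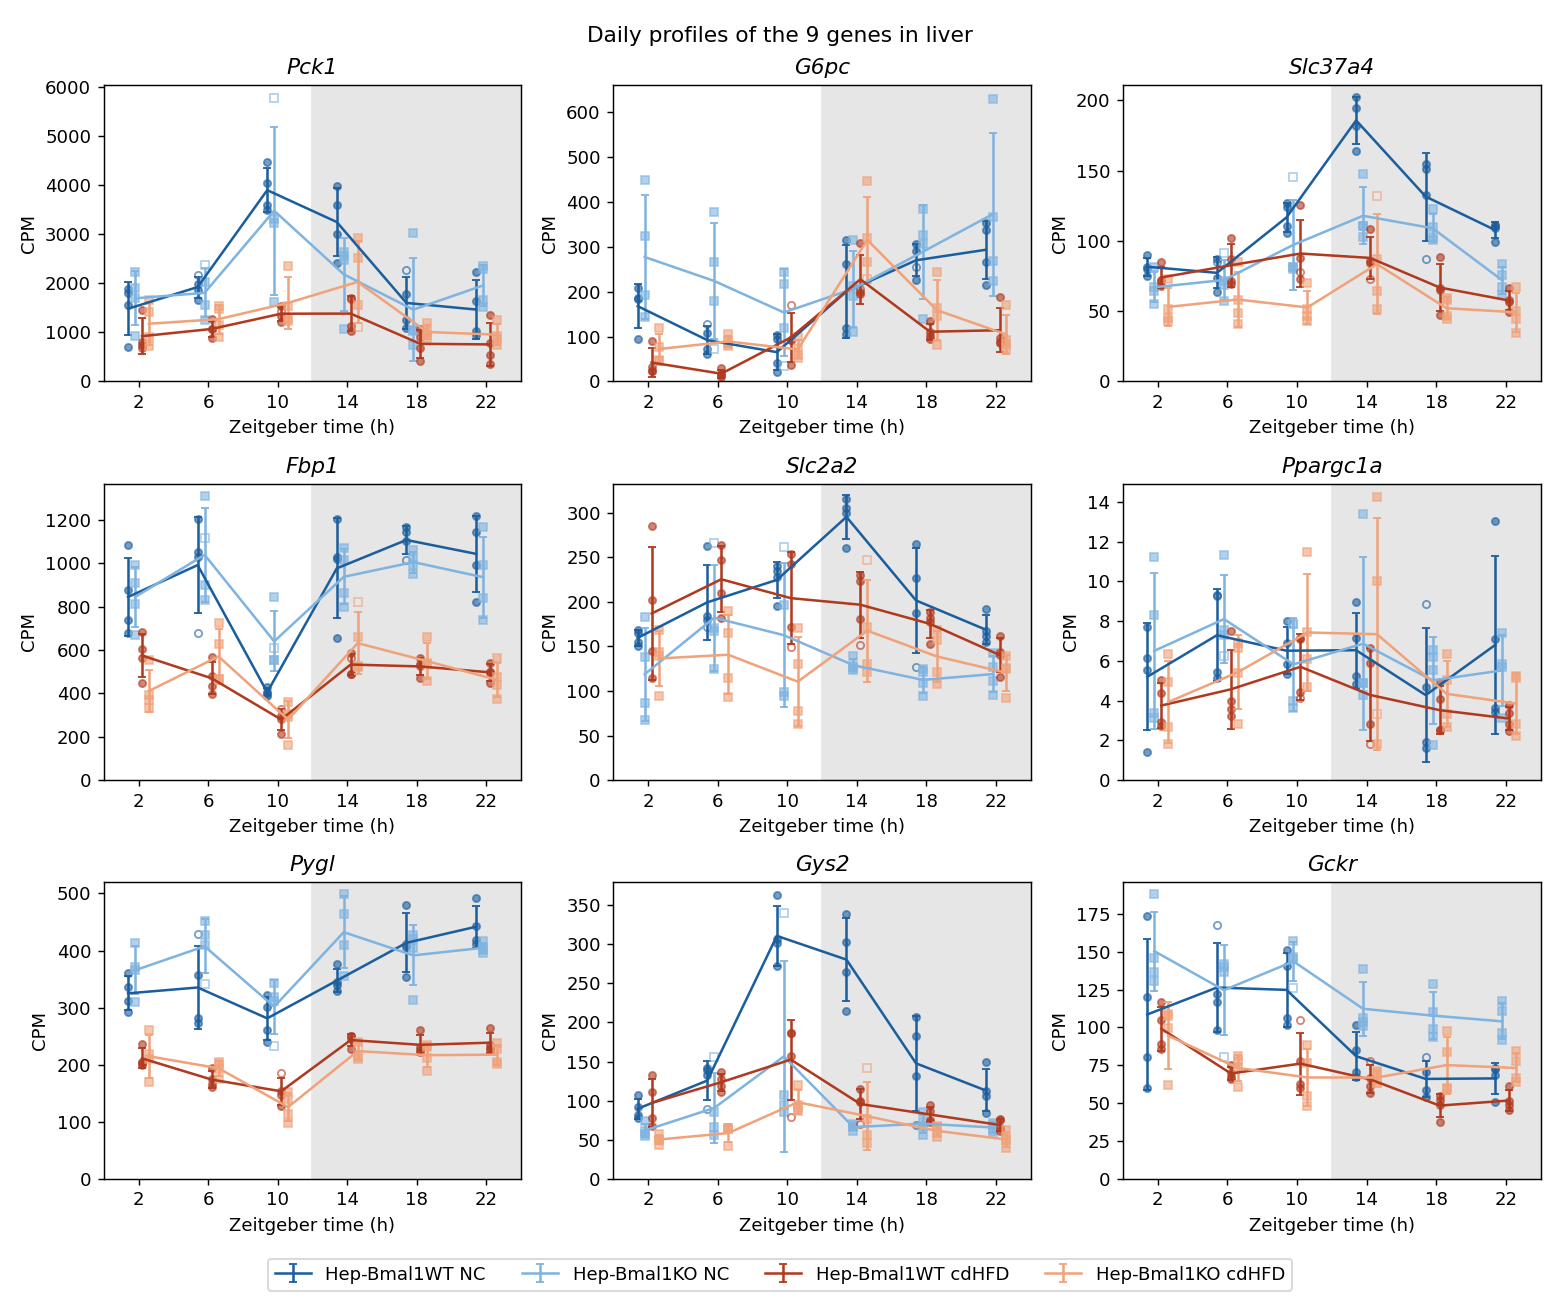
CPM of each gene (y axis, from 0) against ZT in hours (x axis, dark phase shaded) in the 4 combinations of genotype and diet. Points are livers, open points the 7 libraries that lie nearer the other genotype, and lines join means with bars of 1 SD (n = 4). Gys2 in Hep-Bmal1WT on NC climbs to a mean of 311 CPM at ZT 10, above the other 3 combinations, and Pygl and Fbp1 on NC run above their levels on cdHFD.

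In Hep-Bmal1WT livers on NC, 8 of the 9 genes were rhythmic, against 22.5% of all 15548 genes tested. A gene was called rhythmic where the unadjusted p was under 0.01 in a cosinor F test, in JTK_CYCLE, or in an edgeR test of 24-hour cosine and sine terms. Amplitude is given from the midline to the peak, in variance-stabilized log2 units. Gckr peaked earliest, at ZT 7.20 ± 0.75 SE, with an amplitude of 0.52 ± 0.10. Pck1 followed at ZT 11.3 ± 0.64, Gys2 at ZT 12.3 ± 0.51, and Slc2a2 at ZT 12.8 ± 0.71, close to lights off, and the error ranges of Gys2 overlapped those of both neighbors. Slc37a4 peaked at ZT 15.2 ± 0.47, whereas G6pc, Pygl, and Fbp1 peaked late in the night at ZT 20.25 ± 0.60, ZT 20.3 ± 0.72, and ZT 21.05 ± 1.1. The widest rhythm was that of G6pc, with an amplitude of 1.13 ± 0.18, equal to a fitted 4.8-fold range between trough and peak. Gys2 and Pck1 ranged 3.43-fold and 3.01-fold. Ppargc1a, counted at only 1.4 to 13.04 CPM, had an amplitude of 0.21 ± 0.15 and was not called rhythmic (n = 24, cosinor p = 0.39). The storage and use genes thus peaked at ZT 7.20 and 12.3, and the 6 rhythmic output genes between ZT 11.3 and 21.05. Without the libraries that lie nearer the other genotype, 7 genes were called in this group, Fbp1 being lost, beside 21% of all genes.

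Over all ZTs on NC, 5 of the 9 genes differed between genotypes, 3 lower and 2 higher in Hep-Bmal1KO, where 12.6% of all genes tested were called (5.61% lower and 7% higher). Without the libraries that go against their label 5 were called again, beside 17.1% of all genes. Gys2 ranged from 69.2 CPM (lowest) through 140 CPM (median) to 363 CPM (highest) in Hep-Bmal1WT and from 54.9 through 67.9 to 340 CPM in Hep-Bmal1KO. The highest Hep-Bmal1KO value belongs to ZT 10 replicate 3, which lies nearer Hep-Bmal1WT. Its log2 fold change was -0.99 ± 0.14 (SE, edgeR adjusted p = 1.8e-06), and -1.24 ± 0.11 without the 4 NC libraries that go against their label. Slc2a2 was measured at 127 (lowest), 190 (median), and 316 CPM (highest) in Hep-Bmal1WT and at 67.9, 126, and 266 CPM in Hep-Bmal1KO. The ranges overlap, and the log2 fold change was -0.60 ± 0.11 (adjusted p = 7.3e-05). Slc37a4 fell by 0.36 ± 0.070 on the log2 scale (adjusted p = 0.00022), from a mean of 117 ± 39.6 CPM (SD, n = 24) to 89.1 ± 25.8 CPM.

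Gckr and G6pc moved the other way. Gckr had a median of 82.9 CPM (range 50.9 to 173) in Hep-Bmal1WT and of 127 CPM (range 80.4 to 188) in Hep-Bmal1KO, a log2 fold change of 0.41 ± 0.090 (edgeR adjusted p = 0.0011). G6pc had a median of 184 CPM (range 21.7 to 354) against 234 CPM (range 34.7 to 629). Its log2 fold change of 0.62 ± 0.20 passed the test at an adjusted p of 0.030, but missed it without replicate 1, 2, or 4 of every group (adjusted p = 0.17, 0.16, and 0.054) and held without the libraries that go against their label (0.70 ± 0.19, adjusted p = 0.0083). In females alone only Gys2 remained called of the 5. That fit has fewer livers and holds Hep-Bmal1WT ZT 18 replicate 4 and Hep-Bmal1KO ZT 6 replicate 4 and ZT 10 replicate 3. These libraries go against their label, so calls lost in females are not read as a difference between the sexes. The same limit holds for every NC fit in females below. Pck1, Fbp1, Ppargc1a, and Pygl had log2 fold changes of -0.06 ± 0.14, 0.06 ± 0.079, 0.05 ± 0.19, and 0.11 ± 0.057, and none passed the test. The median over the 9 genes was 0.049, beside -0.012 over all genes tested. In whole liver, fewer hepatocytes and less of a transcript per hepatocyte cannot be told apart. The summed CPM of the 6 hepatocyte markers had a median of 152100 in Hep-Bmal1WT (range 92310 to 209100) and of 103500 in Hep-Bmal1KO (range 78730 to 211500) on NC, 1 of the 6 markers was called lower, 1 of 4 cholangiocyte markers was called higher, and no macrophage, stellate cell, endothelial, or lymphocyte marker was called. The part of this in the results was not tested.

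**Figure D2:**
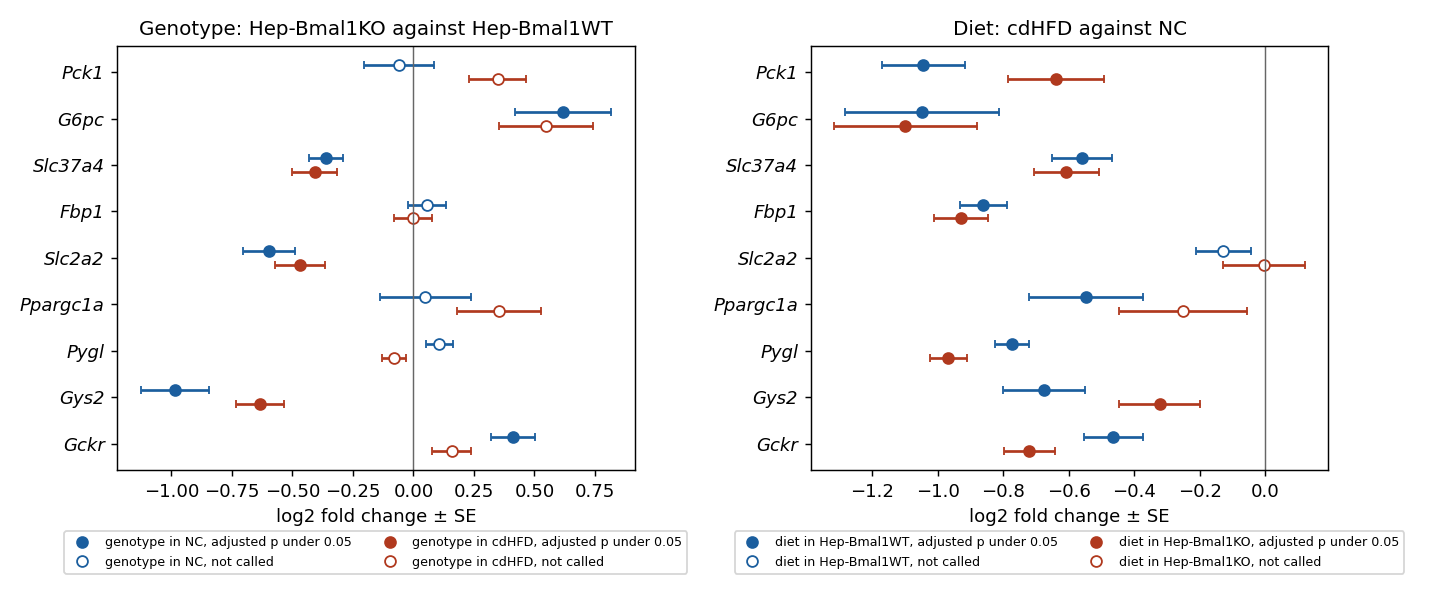
Log2 fold change with its SE (x axis) for each gene (y axis), for Hep-Bmal1KO against Hep-Bmal1WT within each diet (left) and for cdHFD against NC within each genotype (right). Filled points passed an adjusted p of 0.05 in edgeR and open points did not. Gys2, Slc2a2, and Slc37a4 lie left of 0 for genotype on both diets, and 8 of 9 (Hep-Bmal1WT) and 7 of 9 (Hep-Bmal1KO) genes were called lower on cdHFD.

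On cdHFD, 3 of the 9 genes differed between genotypes, all lower in Hep-Bmal1KO, where 9.61% of all genes tested were called (4.99% lower and 4.62% higher). Without the libraries that go against their label 5 were called, beside 13% of all genes. These were the same 3 genes that were lower on NC. Gys2 ranged over 60.6, 96.02, and 187 CPM (lowest, median, highest) in Hep-Bmal1WT and over 39.02, 60.2, and 142 CPM in Hep-Bmal1KO, with a log2 fold change of -0.64 ± 0.099 (edgeR adjusted p = 1.4e-05). Slc2a2 had a median of 181 CPM (range 115 to 286) against 130 CPM (range 63.1 to 247) and a log2 fold change of -0.47 ± 0.10 (adjusted p = 0.0016). Slc37a4 had a median of 72.3 CPM (range 47.3 to 125) against 51.3 CPM (range 34.7 to 132) and a log2 fold change of -0.41 ± 0.094 (adjusted p = 0.0025). In females alone the Slc37a4 call was lost (-0.23, edgeR adjusted p = 0.20), while Gckr (0.34, adjusted p = 0.022) and Pck1 (0.56, adjusted p = 0.017) were called. The cdHFD fits in females and in males each hold libraries that go against their label. The edgeR test of sex by genotype passed for none of these genes (adjusted p = 0.58, 0.94, and 0.51 for Slc37a4, Gckr, and Pck1). These changes are therefore not read as a difference between the sexes.

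The gluconeogenic pair Pck1 and G6pc just missed the threshold on cdHFD. Pck1 had a median of 1060 CPM (range 348 to 1698) in Hep-Bmal1WT and of 1208 CPM (range 720 to 2933) in Hep-Bmal1KO. Its log2 fold change was 0.35 ± 0.12 (edgeR adjusted p = 0.051), and 0.39 ± 0.12 without the 3 cdHFD libraries that go against their label (adjusted p = 0.023). G6pc had medians of 92.6 and 91.5 CPM, with a higher upper end in Hep-Bmal1KO (447 against 309 CPM), and its log2 fold change of 0.55 ± 0.19 (adjusted p = 0.062) became 0.65 ± 0.19 (adjusted p = 0.014) without those libraries. Gckr (0.16 ± 0.082), Ppargc1a (0.35 ± 0.17), Fbp1 (-0.00 ± 0.080), and Pygl (-0.08 ± 0.050) were not called. On this diet 3 of 8 macrophage markers were called higher and 1 lower, 5 of 7 stellate cell, and 2 of 4 cholangiocyte markers were called higher and 2 of 6 hepatocyte markers lower in Hep-Bmal1KO. Their part in these results was not tested.

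**Figure D3:**
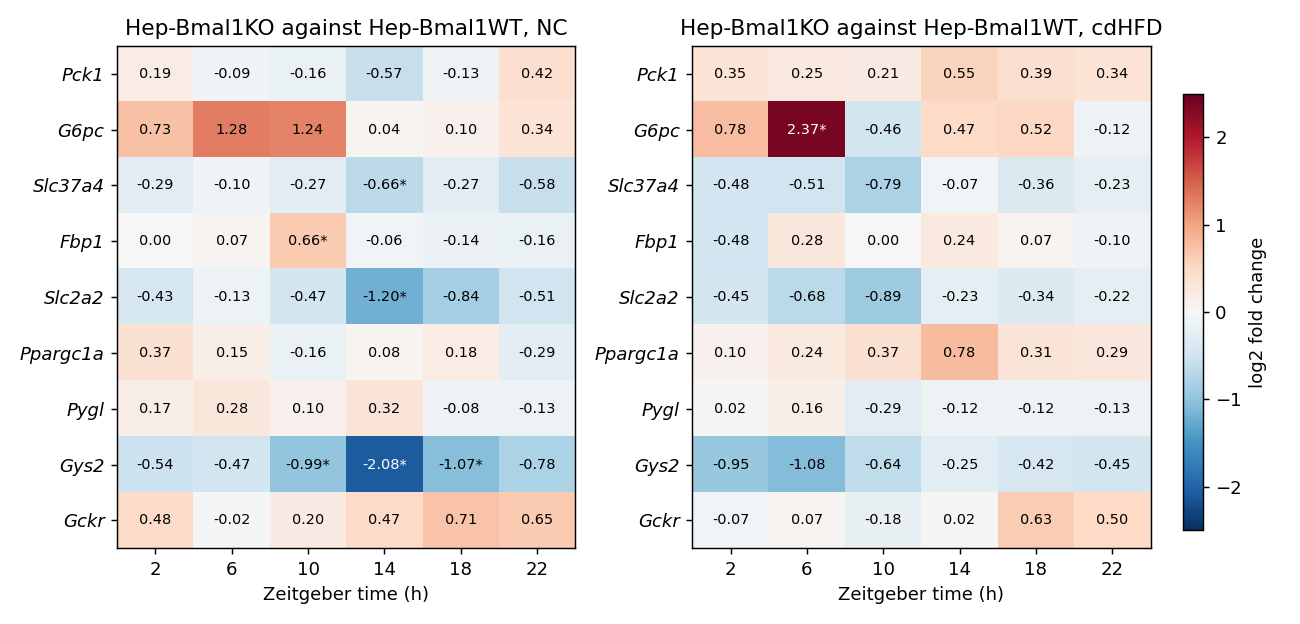
Log2 fold change of Hep-Bmal1KO against Hep-Bmal1WT for each gene (rows) at each ZT in hours (columns), on NC (left) and on cdHFD (right). Color gives the log2 fold change, the value is printed in each cell, and an asterisk marks an adjusted p under 0.05 in edgeR. Gys2 is lowest at ZT 14 on NC, at -2.08, and G6pc is highest at ZT 6 on cdHFD, at 2.37.

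Among the 54 comparisons of a gene at a single ZT on NC, 6 were called, or 2 to 3 with any 1 replicate number left out, where 1.7% of such comparisons were called over all genes, and in 11 the 4 livers of each genotype did not overlap, where 5.76% of such comparisons over all genes did not. At ZT 14, Gys2 stood at 265, 215, 339, and 303 CPM in Hep-Bmal1WT and at 65.7, 67.5, 70.4, and 60.8 CPM in Hep-Bmal1KO. Every Hep-Bmal1KO liver lay far below every Hep-Bmal1WT liver, with a log2 fold change of -2.08 ± 0.28 (edgeR adjusted p = 3.8e-07). Slc2a2 at the same ZT was 260, 300.0, 316, and 306 CPM against 123, 128, 126, and 139 CPM, again with no overlap (-1.20 ± 0.26, adjusted p = 0.0017). Slc37a4 at ZT 14 was 182, 164, 195, and 202 CPM against 148, 110, 103, and 110 CPM (-0.66 ± 0.20, adjusted p = 0.043).

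Gys2 was also lower at ZT 10 (-0.99 ± 0.27, adjusted p = 0.029) and ZT 18 (-1.07 ± 0.28, adjusted p = 0.045), where the genotypes overlapped through libraries that go against their label. Without these libraries the values were -1.70 and -1.30. Fbp1 differed at ZT 10 only. In Hep-Bmal1WT it was at 396, 407, 388, and 430 CPM, and in Hep-Bmal1KO at 552, 553, 611, and 843 CPM, so that the genotypes did not overlap (0.66 ± 0.18, edgeR adjusted p = 0.030). At the other 5 ZTs its log2 fold changes lay between -0.16 and 0.07. Gckr did not overlap at ZT 18 and ZT 22, with log2 fold changes of 0.71 ± 0.20 and 0.65 ± 0.20, and missed the threshold at both (adjusted p = 0.088 and 0.094). Without the libraries that go against their label, 15 of the 54 comparisons were called, beside 3.65% over all genes.

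On cdHFD, 1 of the 54 comparisons was called, or 0 to 1 with a replicate number left out, where 0.12% of such comparisons were called over all genes. G6pc at ZT 6 was at its daily low of 13.7, 9.71, 15.4, and 29.95 CPM in Hep-Bmal1WT and at 89.8, 105, 82.4, and 78.9 CPM in Hep-Bmal1KO. No liver overlapped, and the log2 fold change was 2.37 ± 0.47 (edgeR adjusted p = 0.0056). In 7 of the 54 the genotypes did not overlap, where 5.49% over all genes did not, and 3 of the 7 were of Gys2, at ZT 2, 6, and 18. At ZT 6 Gys2 was 111, 119, 128, and 136 CPM in Hep-Bmal1WT and 41.8, 63.8, 63.7, and 64.3 CPM in Hep-Bmal1KO (-1.08 ± 0.28, adjusted p = 0.059). At ZT 14 Gys2 had a log2 fold change of -0.25 on cdHFD, where a library of each genotype went against its label, and of -0.81 (adjusted p = 0.040) without them. In all, 7 of the 54 were called without those libraries, beside 0.56% over all genes.

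**Figure D4:**
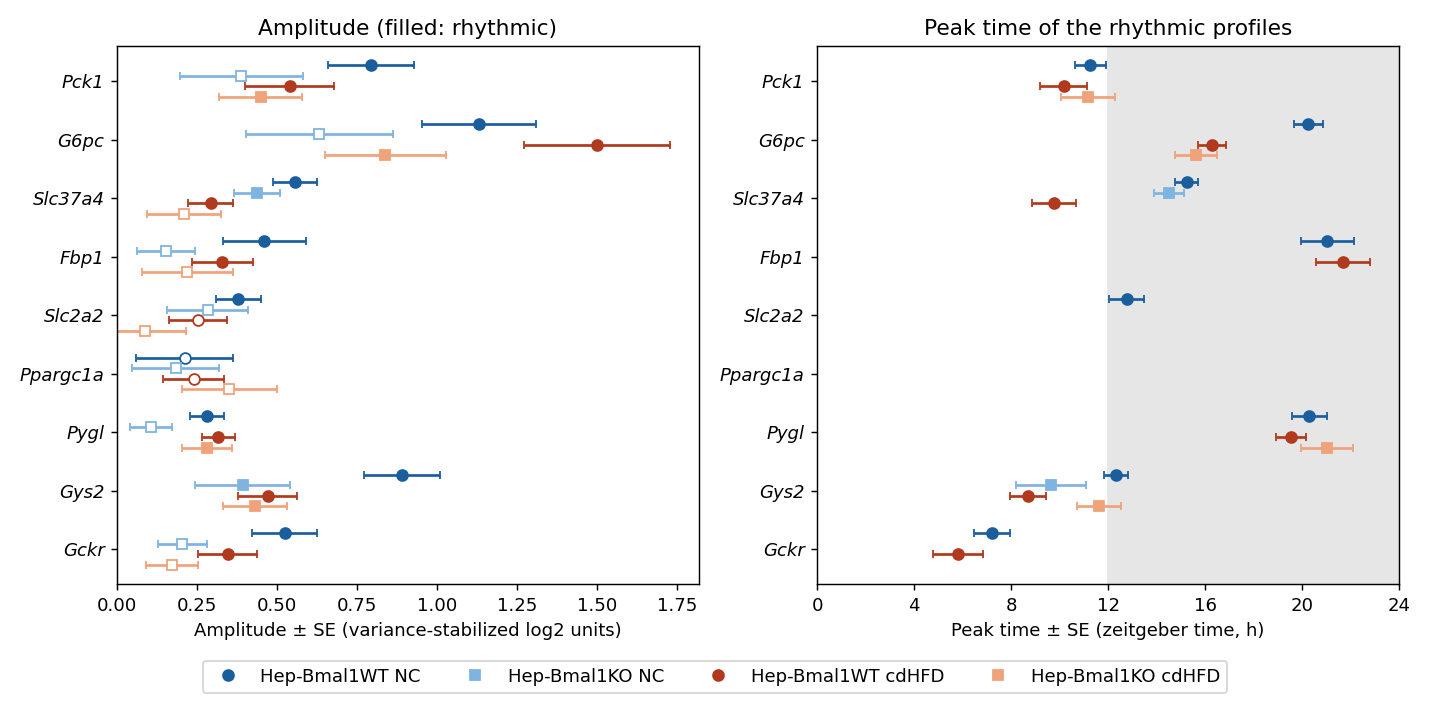
Fitted amplitude with its SE in variance-stabilized log2 units (left, x axis; filled points were called rhythmic) and peak time with its SE in ZT hours for the rhythmic profiles (right, x axis; dark phase shaded) of each gene (y axis) in the 4 combinations of genotype and diet (24 livers each). Gys2 has an amplitude of 0.89 in Hep-Bmal1WT on NC and of 0.39 to 0.47 in the other 3, and G6pc, Slc37a4, and Gys2 peak earlier on cdHFD than on NC in Hep-Bmal1WT.

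In Hep-Bmal1KO on NC, 2 of 9 genes were called rhythmic (Slc37a4 and Gys2), where 11.1% of all genes were, and on cdHFD 7 of 9 were called in Hep-Bmal1WT and 4 of 9 in Hep-Bmal1KO (Pck1, G6pc, Gys2, and Pygl), where 18.8% and 10.3% of all genes were. Whether these counts differ between genotypes was not tested. Without the libraries that go against their label, 2 were called in Hep-Bmal1KO on NC (Gckr and Slc37a4, beside 10.4% of all genes), 8 in Hep-Bmal1WT on cdHFD (Fbp1 lost, Slc2a2 and Ppargc1a gained, beside 17.7%), and 5 in Hep-Bmal1KO on cdHFD (Ppargc1a gained, beside 10.2%). The call for Gys2 in Hep-Bmal1KO on NC rests on the edgeR test (n = 24, p = 0.0030) and was lost without the libraries that go against their label, where its amplitude was 0.17 in place of 0.39. Slc37a4 kept a clear rhythm in Hep-Bmal1KO on NC, with a peak at ZT 14.5 ± 0.63 and an amplitude of 0.44 ± 0.072, 0.12 ± 0.099 below that in Hep-Bmal1WT (CircaCompare model, n = 24 per genotype, p = 0.24).

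All 9 amplitudes were fitted lower in Hep-Bmal1KO than in Hep-Bmal1WT on NC. The share of all genes fitted lower was not computed, and the paper reports generally reduced amplitudes among genes rhythmic in both genotypes. The direction is thus not read as particular to the 9. For 3 the CircaCompare model gave a p below 0.05 before adjustment, where 14.2% of the genes rhythmic in at least 1 genotype were called. Gckr differed by -0.32 ± 0.13 (n = 24 per genotype, p = 0.016), Gys2 by -0.50 ± 0.19 (p = 0.012), and Pygl by -0.18 ± 0.085 (p = 0.044). None of the 3 passed after adjustment over all genes, and the call was lost without replicate 3 or 4 for Gckr, without replicate 1 for Gys2, and without replicate 1 or 4 for Pygl. Without the libraries that go against their label 6 were called: Gys2 (-0.72), G6pc (-0.83), Pck1 (-0.55), Pygl (-0.27), Slc2a2 (-0.25), and Slc37a4 (-0.17). The mesor, the midline of the fitted rhythm, differed between genotypes for 5 genes on NC (32.2% of all genes compared were called), the same 5 as in the test over all ZTs, of which G6pc did not pass after adjustment (adjusted p = 0.097). No phase differed between genotypes on NC for the 2 genes rhythmic in both, where 13.3% of all genes compared were called. Gys2 had a phase difference of -2.69 ± 1.4 hours (n = 24 per genotype, p = 0.066) and Slc37a4 of -0.74 ± 0.78 hours (p = 0.35). On cdHFD the amplitude of G6pc was fitted lower in Hep-Bmal1KO before adjustment, 0.84 ± 0.19 against 1.5 ± 0.23 (difference -0.66 ± 0.30, n = 24, p = 0.031), where 11.7% of the genes compared were called, and Gys2 peaked 2.93 ± 1.2 hours later (p = 0.016), where 14.8% were called. Neither passed after adjustment over all genes. The G6pc difference was lost without replicate 2 (-0.44) or 3 (-0.69) and in females (-0.52), and that of Gys2 without replicate 1 (1.91 hours) and in each sex alone. The Gys2 phase difference was 1.92 hours (n = 22 and 23, p = 0.067) without the libraries that go against their label. The mesor differed for 4 genes on cdHFD (Pck1, G6pc, Slc37a4, and Gys2), where 25.1% of the genes compared were called. After adjustment over all genes, 2 of the 4 passed, Slc37a4 and Gys2, and Pck1 (adjusted p = 0.083) and G6pc (adjusted p = 0.067) did not. Slc2a2, rhythmic in neither genotype on cdHFD and so not among the genes compared, had a mesor difference of -0.47 ± 0.11 (adjusted p = 0.0044).

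In Hep-Bmal1WT, 8 of the 9 were lower on cdHFD and none was higher, while 55.7% of all genes tested were called and 27% were called lower. In Hep-Bmal1KO, 7 were lower and none higher, while 61.9% were called and 29.6% were called lower. The median log2 fold change of the 9 genes was -0.68 in Hep-Bmal1WT and -0.64 in Hep-Bmal1KO, beside 0.013 and 0.023 over all genes tested.

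Pck1 had a median of 1934 CPM on NC (range 694 to 4465) and of 1060 CPM on cdHFD (range 348 to 1698) in Hep-Bmal1WT, and of 1968 CPM (range 744 to 5772) and 1208 CPM (range 720 to 2933) in Hep-Bmal1KO. The log2 fold changes were -1.04 ± 0.13 and -0.64 ± 0.15 (edgeR adjusted p = 7.0e-10 and 0.00017). G6pc fell by 1.05 ± 0.24 and by 1.10 ± 0.22 on the log2 scale (adjusted p = 0.00016 and 2.0e-05). Fbp1 had a median of 1018 CPM on NC and 495 CPM on cdHFD in Hep-Bmal1WT and of 903 and 471 CPM in Hep-Bmal1KO, with log2 fold changes of -0.86 ± 0.071 and -0.93 ± 0.083 (adjusted p = 5.3e-15 and 4.6e-14). Pygl had the smallest p of the 9 genes: its ranges on NC and cdHFD were 240 to 492 and 127 to 264 CPM in Hep-Bmal1WT, and 233 to 499 and 97.7 to 261 CPM in Hep-Bmal1KO. These overlapped only at their ends, with log2 fold changes of -0.77 ± 0.052 and -0.97 ± 0.057 (adjusted p = 4.5e-18 and 2.3e-20).

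Slc37a4 (-0.56 ± 0.091 and -0.61 ± 0.099), Gckr (-0.46 ± 0.090 and -0.72 ± 0.077), and Gys2 (-0.67 ± 0.12 and -0.32 ± 0.12) were lower on cdHFD in Hep-Bmal1WT and in Hep-Bmal1KO, respectively. Gys2 in Hep-Bmal1KO had the largest p of these (edgeR adjusted p = 0.022), and its call was lost without replicate 2 (-0.30, adjusted p = 0.11) or 3 (-0.23, adjusted p = 0.11), in males (adjusted p = 0.091), and in females (adjusted p = 0.16). In males alone Gckr in Hep-Bmal1WT was not called (-0.26, adjusted p = 0.11). Ppargc1a was lower in Hep-Bmal1WT (-0.55 ± 0.17, adjusted p = 0.0065), a call that was lost without the libraries that go against their label (-0.35 ± 0.18, adjusted p = 0.087), without replicate 3 (adjusted p = 0.063), and in males (adjusted p = 0.21), and had a log2 fold change of -0.25 ± 0.20 in Hep-Bmal1KO. Slc2a2, the plasma membrane transporter, was the exception in both genotypes, with log2 fold changes of -0.13 ± 0.085 (adjusted p = 0.20) and -0.00 ± 0.13 (adjusted p = 0.98). Hepatocyte and other markers moved with the diet: all 6 hepatocyte markers were lower on cdHFD in each genotype, their summed median going from 152100 to 74770 CPM in Hep-Bmal1WT (cdHFD range 54550 to 91590) and from 103500 to 62550 CPM in Hep-Bmal1KO (cdHFD range 48610 to 84480), and all 8 macrophage markers were higher, from a summed median of 353 CPM (range 196 to 520) to 1875 CPM (range 965 to 2409) and from 336 CPM (range 161 to 522) to 2136 CPM (range 1367 to 2879). Of 7 stellate cell markers 6 and 7 were higher. How far these shifts in markers account for the lower counts was not tested.

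Peak times in Hep-Bmal1WT were then compared between diets. Among the 7 genes rhythmic on both diets, 3 had an earlier peak on cdHFD at an unadjusted p under 0.05, a share close to the 45.6% of all genes compared that had a phase difference. G6pc peaked at ZT 16.3 ± 0.58 on cdHFD, a difference from NC of -3.95 ± 0.87 hours (n = 24 livers per group, p = 4.3e-05, adjusted over all genes 0.0017). Slc37a4 moved from ZT 15.2 to ZT 9.77 ± 0.92, a difference of -5.47 ± 1.0 hours (n = 24, p = 3.3e-06, adjusted 0.00026). Gys2 moved from ZT 12.3 to ZT 8.69 ± 0.75, a difference of -3.63 ± 0.98 hours (n = 24, p = 0.00059, adjusted 0.011). Pck1 (-1.10 ± 1.2 hours), Gckr (-1.40 ± 1.3 hours), Pygl (-0.74 ± 0.95 hours), and Fbp1 (0.65 ± 1.6 hours) did not pass the test. The amplitudes of Slc37a4 (-0.26 ± 0.098, n = 24, p = 0.010) and Gys2 (-0.42 ± 0.15, p = 0.0080) were lower on cdHFD, where 22.3% of the genes compared differed in amplitude, and that of G6pc was fitted at 1.5 against 1.13, a difference of 0.37 ± 0.29 (p = 0.21). Neither amplitude difference passed after adjustment over all genes, and the call was lost without replicate 1 or 2 for Slc37a4 and without replicate 3 for Gys2. Mesors were lower for all 7 of these genes, where 64.2% of the genes compared differed. In Hep-Bmal1KO the mesors of Pck1, G6pc, Slc37a4, and Pygl were lower on cdHFD (68.9% of the genes compared were called). Fbp1 (-0.89 ± 0.12, adjusted p = 1.7e-08) and Gckr (-0.66 ± 0.079, adjusted p = 1.1e-09), rhythmic on neither diet in this genotype and so not among the genes compared, also had lower midlines. No amplitude was called (19.6%), and of phases only that of Gys2 could be compared, at 2.00 ± 1.7 hours (n = 24, p = 0.24, 42.8% called over all genes).

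Whether the genotype effect depended on the diet was tested as an interaction over all 96 livers, and none of the 9 genes passed in edgeR or in DESeq2, where 3.04% of all genes passed in edgeR. At an unadjusted p under 0.05 there were 4 (Gckr, Pck1, Gys2, and Pygl), where 16.5% of all genes were. Gys2 had an interaction of 0.35 ± 0.18 on the log2 scale (adjusted p = 0.30), and without the libraries that go against their label it passed at 0.48 ± 0.13 (adjusted p = 0.017), a smaller reduction on cdHFD than on NC, the 1 gene of the 9 to pass, beside 5.91% of all genes. For G6pc the genotype passed on NC and not on cdHFD, but the difference between these effects was -0.06 ± 0.29 (adjusted p = 0.96). For Gckr it was -0.25 ± 0.12 (adjusted p = 0.29), and for Pck1 0.41 ± 0.19 (adjusted p = 0.26).

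Sex was compared within the 24 groups over all livers. Of the 9 genes 4 were lower in males, where 17.2% of all genes tested differed by sex. Slc2a2 was at 183 ± 53.7 CPM in females and 153 ± 56.7 CPM in males (SD, a log2 difference of -0.31 ± 0.067, edgeR adjusted p = 0.00021). Ppargc1a (-0.42 ± 0.13, adjusted p = 0.015), Gckr (-0.17 ± 0.055, adjusted p = 0.020), and Fbp1 (-0.15 ± 0.051, adjusted p = 0.022) differed by less or were noisier. The count ranged from 1 to 2 when 1 replicate of every group was left out. The diet effect on Pygl differed between the sexes by -0.23 ± 0.069 (adjusted p = 0.019, where 8.06% of all genes passed), and no gene of the 9 had a genotype effect that passed as different between sexes, where 0.109% of all genes did. Of the 9, Slc2a2 and Pck1 had the lowest p for that term, and both were far from passing (edgeR adjusted p = 0.32 and 0.51).

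Genes whose mean profile over the 24 groups was most like that of each member were sought among genes of at least 10 CPM. The likeness is Pearson's r of log2 CPM over 24 group means, which share livers and depth, and is a description. Pygl was followed most closely, by C8g and Cyp27a1 (r = 0.975 for each), and Fbp1 by Urah (0.970) and Atp5a1 (0.969). Gys2 was most like Ak4 (0.912) and Gstt2 (0.902), Slc2a2 like Acaa1a (0.861) and Ak4 (0.849), and Slc37a4 like Hlf (0.896), a clock output factor, and Homer2 (0.894). G6pc was most like Slc25a15 (0.893) and the clock repressor Cry1 (0.871), Pck1 like Zfp219 (0.908) and Lpin1 (0.895), and Gckr like Rsrc1 (0.931) and Cdo1 (0.904). Ppargc1a had the weakest likeness, to Slc38a2 (0.734) and Tmcc1 (0.732).

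Members also varied together from liver to liver inside a group. Over the 36 pairs, the deviations of log2 CPM from the group mean were correlated over 96 livers, with p from 100000 shuffles of livers within groups, two-sided and adjusted over the 36 pairs. Each group holds both sexes, so the sex differences given above remain in these deviations. Their part in the correlations was not tested. Slc2a2, Slc37a4, and Gys2, the 3 genes lower in Hep-Bmal1KO on both diets, had the 3 highest correlations with all 96 livers, though not without the 7 libraries that go against their label, where Slc2a2 with Pygl (0.53, against 0.212 with all livers) and Pck1 with Ppargc1a came first. For Slc2a2 with Gys2, r was 0.611 (Spearman's rho 0.551, permutation p = 1e-05 for each, the smallest these shuffles can give, adjusted p = 0.00012). It was 0.523 within NC, 0.725 within cdHFD, 0.579 without the 2 livers farthest from the median, and 0.379 without the 7 libraries that go against their label. Slc2a2 with Slc37a4 had r = 0.607 (rho 0.569) and Slc37a4 with Gys2 r = 0.618 (rho 0.519), and these were 0.468 and 0.412 without those 7 libraries. Pck1 went with Ppargc1a, its coactivator, at r = 0.484 (rho 0.484, permutation p = 7e-05 and 8e-05, adjusted 0.00063 and 0.00072), with 0.474 within NC, 0.495 within cdHFD, 0.485 without the 2 farthest livers, and 0.486 without the 7 libraries. In all, 7 of the 36 pairs had an adjusted permutation p under 0.05 for r, 6 positive and 1 negative. The negative pair, Gckr with Gys2 (r = -0.299, rho -0.250), was at 0.018 without those 7 libraries. The share of pairs called among other genes was not computed, so the count is not read as particular to these members.

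Other genes of the same routes were read from lists. Of 24 genes of glycolysis, 2 were higher and 6 lower in Hep-Bmal1KO on NC, and 2 higher and 7 lower on cdHFD, with medians of -0.14 and -0.034. Among those higher on cdHFD was the muscle-type pyruvate kinase Pkm (0.24 ± 0.067, edgeR adjusted p = 0.014). Its call was lost without replicate 1, 2, or 3 and in each sex alone. The liver pyruvate kinase Pklr was lower on both diets (-0.51 ± 0.11 and -0.42 ± 0.098, edgeR adjusted p = 0.00055 and 0.0029), as were Gapdh (-0.32 ± 0.060 and -0.43 ± 0.055), Eno1 (-0.33 ± 0.064 and -0.40 ± 0.057), and the isomerase Gpi1 (-0.22 ± 0.052 and -0.31 ± 0.052). The Pklr call on cdHFD was lost without replicate 2 (adjusted p = 0.079) or 3 (adjusted p = 0.067) and in males (adjusted p = 0.051), and the Gpi1 call on NC without replicate 1 or 2. Of 19 further genes of gluconeogenesis, 3 were higher and 4 lower on NC, and 2 higher and 2 lower on cdHFD. Got1, a transaminase that supplies oxaloacetate, rose by 0.75 ± 0.15 and 0.61 ± 0.14, lactate dehydrogenase Ldha rose by 0.24 ± 0.075 and 0.34 ± 0.069, and pyruvate carboxylase Pcx was lower on both diets (-0.19 ± 0.046 and -0.24 ± 0.056). On NC the Ldha call was lost without replicate 1 or 2 and the Pcx call without replicate 2. In females alone none of Pklr, Gapdh, Eno1, Gpi1, Ldha, and Pcx was called on NC, nor Pcx on cdHFD, and in males alone neither Gpi1 nor Got1 on cdHFD. The NC fit in females and the cdHFD fits in each sex hold libraries that go against their label. These counts are read beside 7% of all genes higher and 5.61% lower on NC, and 4.62% and 4.99% on cdHFD.

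Of 24 further genes of glycogen metabolism, 4 were higher and 2 lower in Hep-Bmal1KO on NC, and 2 higher and 1 lower on cdHFD. The branching enzyme Gbe1 was lower on both diets (-0.30 ± 0.085 and -0.71 ± 0.097, edgeR adjusted p = 0.011 and 1.7e-06), but on NC its call was lost without replicate 1 (-0.26, adjusted p = 0.12) or 2 (-0.20, adjusted p = 0.29) and in females (-0.07, adjusted p = 0.85). The interaction for Gbe1 had an adjusted p of 0.073, and of 0.023 without the libraries that go against their label. Glycogenin (Gyg, 0.55 ± 0.15) and Ugp2 (0.26 ± 0.059), which prime and feed the synthesis of glycogen, respectively, were higher on NC, and the difference of the genotype effect between diets had an interaction adjusted p of 0.25 and 0.054, or of 0.029 (-0.50) and 0.022 (-0.31), both passing, without the libraries that go against their label. The NC calls were lost without replicate 3 for both, and for Gyg also without replicate 1 and in females. Ppp1r3g, a subunit that directs protein phosphatase 1 to glycogen, was lower in Hep-Bmal1KO on NC (-1.47 ± 0.50, adjusted p = 0.042) and higher on cdHFD (1.5 ± 0.43, adjusted p = 0.016), at mean levels of 3.03 and 1.12 CPM on NC and 1.27 and 4.53 CPM on cdHFD (interaction 2.92 ± 0.68, adjusted p = 0.0051). These Ppp1r3g calls rest on few counts and were lost in several fits with fewer livers. The interaction was lost without replicate 1 (2.16, edgeR adjusted p = 0.19) and in females (1.52, adjusted p = 0.43). The NC call was lost without replicate 1, 2, or 4 and in females, and the cdHFD call without replicate 1 or 2 and in each sex alone. Of 21 genes that control glucose output, 3 were higher and 6 lower on NC, and 1 higher and 6 lower on cdHFD. The sugar-sensing factor Mlxipl was lower on both (-0.57 ± 0.094 and -0.66 ± 0.085, adjusted p = 2.2e-05 and 7.0e-07), as were the hepatocyte factors Hnf4a (-0.29 ± 0.064 and -0.25 ± 0.043) and Cebpa (-0.39 ± 0.10 and -0.48 ± 0.090), and Foxo3 was lower on NC (-0.45 ± 0.097, against -0.19 ± 0.082, not called, on cdHFD, interaction adjusted p = 0.31). On NC the Cebpa call was lost without replicate 1, and Hnf4a, Cebpa, and Foxo3 were not called in females alone, with the limit given above for that fit.

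On cdHFD against NC, the same lists moved in both directions, apart from the control genes. Of the glycolysis genes 10 were higher and 8 lower in Hep-Bmal1WT, and 9 and 9 in Hep-Bmal1KO. The muscle-type pyruvate kinase Pkm rose by 1.95 ± 0.11 and 2.32 ± 0.10 and the hexokinase Hk3, found in white blood cells, by 2.23 ± 0.18 and 2.32 ± 0.18, while Aldoc (-2.58 ± 0.14 and -2.99 ± 0.16) and Pklr (-0.81 ± 0.11 and -0.72 ± 0.10) were lower, all on the log2 scale. Hk3 stayed low, at means of 1.15 and 1.12 CPM on NC and 5.52 and 5.62 CPM on cdHFD. Of the further genes of gluconeogenesis 8 were higher and 8 lower in Hep-Bmal1WT and 9 and 9 in Hep-Bmal1KO. The mitochondrial PEPCK Pck2 rose by 1.81 ± 0.11 and 1.92 ± 0.11, opposite to the cytosolic Pck1. Its means were low, at 5.78 and 4.99 CPM on NC and 20.1 and 19.04 CPM on cdHFD. Sds (-1.56 ± 0.12 and -1.24 ± 0.15), Got1 (-1.39 ± 0.15 and -1.53 ± 0.16), and Mdh1 (-0.97 ± 0.051 and -1.18 ± 0.053) were lower. Of the further glycogen genes 5 were higher and 9 lower, and 5 higher and 12 lower. The brain-type phosphorylase Pygb rose by 1.14 ± 0.14 and 1.33 ± 0.15, opposite to Pygl, Pgm2 by 1.39 ± 0.13 and 1.41 ± 0.11, and Gyg by 1.07 ± 0.13 and 0.70 ± 0.10, while Pgm1 (-0.55 ± 0.051 and -0.69 ± 0.052) and the lysosomal Gaa (-0.46 ± 0.057 and -0.66 ± 0.054) were lower. Pygb was low as well, at means of 4.19 and 4.53 CPM on NC and 8.85 and 11.5 CPM on cdHFD. Of the 21 control genes none was higher and 13 were lower in Hep-Bmal1WT, and 1 was higher and 11 were lower in Hep-Bmal1KO, with medians of -0.40 and -0.45. Mlxipl (-1.17 ± 0.099 and -1.26 ± 0.11), Klf15 (-0.91 ± 0.087 and -0.85 ± 0.093), Hnf4a (-0.81 ± 0.059 and -0.77 ± 0.055), and Cebpa (-0.87 ± 0.10 and -0.96 ± 0.10) were among them. These counts are read beside 28.7% of all genes called higher and 27% lower in Hep-Bmal1WT, and 32.4% and 29.6% in Hep-Bmal1KO, and beside the shift in markers given above.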

How the data were processed

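The authors prepared BRB-seq libraries of liver RNA, mapped them with STAR (mm10), and deposited 1 table of unnormalized gene counts for 96 libraries. Per the labels and methods, both HTSeq and featureCounts are named for the counting, with versions not given in the sources used here, and the collapsing of molecular identifiers is not stated, so depth covers counting error only. Entries on rows that name no gene were 22.6% to 39.9% of each library and were left out. Groups come from the sample titles. Replicate numbers follow accession order and pair no mice. In most groups replicates 1 and 2 are males and 3 and 4 females. Leaving out a replicate number thus removes livers mostly of a single sex. Columns were matched to samples by the mouse number in the title.

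A gene was kept if its counts in all 96 libraries summed to 100 or more (15548 of 55487). CPM was scaled by TMM in edgeR 4.0.16 (R 4.3.3). Comparisons used edgeR's quasi-likelihood test with ZT as a factor, within a diet or a genotype, with diet by ZT for the interaction and with 24 cell means for single ZTs and for sex, and p-values were adjusted by Benjamini-Hochberg over the whole table, at 0.05. SEs are the log2 fold change divided by the root of F. Rhythms used values from DESeq2 1.42.0's variance-stabilizing transformation, with a period of 24 hours, and the CircaCompare model was fitted by ordinary least squares, with errors from the delta method. JTK_CYCLE was written anew, with its exact null distribution. Scripts were tested on simulated data.

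The 9 genes, the lists, and the tests were chosen with earlier results of these data known. Named were all 9 genes, Arntl, the 2 genes most like each member, and of each list at most the 3 genes of smallest p in each of the 4 comparisons of genotype or diet. The alternatives were DESeq2's Wald test, DESeq2's size factors, a stricter filter (10 counts or more in 24 libraries or more), keeping any gene counted at all, a sex term in the model, males or females only, each replicate number left out, each rhythm test alone, adjusted thresholds, log2 CPM with a prior count of 2, and leaving out the libraries nearer the other genotype. For single ZTs and sex, leaving out replicates or, for single ZTs, those libraries was added after the data had been seen, as were the correlations between members. Positions are from RefSeq's GRCm38.p6 table. No 2 libraries were identical.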

Additional observations from a re-analysis of the deposited data

Results flagged for a closer look

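Among the 216 sets of 4 livers (9 genes in 24 groups), 17 held a liver far from the other 3 by Dixon's test at its 95% critical value. Chance flags about 1 in 20 such sets. Of the 17, 4 lay in libraries that go against their genotype label. These were Gys2 in Hep-Bmal1KO on NC at ZT 10 replicate 3 (339.9 CPM, the others 84.92 to 107.8), Slc37a4 in the same liver (145.3 CPM, the others 80.11 to 81.7), Gys2 in Hep-Bmal1WT on NC at ZT 6 replicate 2 (89.13 CPM, the others 133.3 to 141.2), and Gckr in Hep-Bmal1KO on NC at ZT 6 replicate 4 (80.38 CPM, the others 136.3 to 141.8).

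The gluconeogenic genes gave 6 of the others. Pck1 was 3032 CPM in Hep-Bmal1KO on NC at ZT 18 replicate 4 (the others 743.5 to 1054), 1073 CPM at ZT 14 replicate 2 of the same genotype and diet (the others 2476 to 2632), and 1458 CPM in Hep-Bmal1WT on cdHFD at ZT 2 replicate 2 (the others 683.8 to 810.7). G6pc in Hep-Bmal1WT on cdHFD was 89.6 CPM at ZT 2 replicate 1 (the others 22.87 to 32.12), 308.6 CPM at ZT 14 replicate 2 (the others 195.5 to 206.8), and 187.2 CPM at ZT 22 replicate 2 (the others 84.93 to 96.39).

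In Hep-Bmal1KO on NC at ZT 14, Gckr was 138.6 CPM in replicate 4 (the others 100.9 to 106.2), Ppargc1a 13.4 CPM in the same liver (the others 4.306 to 4.888), and Slc37a4 147.8 CPM in replicate 1 (the others 102.8 to 110.4). Slc2a2 was 262.3 CPM in Hep-Bmal1WT on NC at ZT 6 replicate 3 (the others 171.2 to 184.5). On cdHFD, Ppargc1a was 7.522 CPM in Hep-Bmal1WT at ZT 6 replicate 4 (the others 3.242 to 3.962), Gys2 41.81 CPM in Hep-Bmal1KO at ZT 6 replicate 1 (the others 63.75 to 64.33), and Pygl 236.9 CPM in Hep-Bmal1WT at ZT 2 replicate 2 (the others 200 to 204.6).

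Effects of 1 contrast that differed between groups were found for 3 of the genes named here. Of the listed genes that are not named, 1 of gluconeogenesis and 2 that control glucose output passed the interaction of genotype and diet with a negative sign. The cdHFD effect on Pygl differed between males and females by -0.2346 on the log2 scale (edgeR adjusted p = 0.019). The genotype effect differed between cdHFD and NC by 2.92 for Ppp1r3g (adjusted p = 0.0051) and by 0.3364 for Gpt2, an alanine transaminase (adjusted p = 0.018), whose log2 fold change was -0.33 ± 0.065 on NC and 0.00 ± 0.060 on cdHFD. The Ppp1r3g difference did not pass without replicate 1 (2.16, adjusted p = 0.19) or in females (1.52, adjusted p = 0.43). That of Gpt2 did not pass without replicate 1 (0.30, adjusted p = 0.17), 2 (0.38, adjusted p = 0.058), or 3 (0.28, adjusted p = 0.12), in males (adjusted p = 0.10), or in females (adjusted p = 0.26).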

How the results depend on the processing

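The count of genes lower or higher on cdHFD stayed within 1.5 times its value under every alternative run, as did the counts of rhythmic genes in Hep-Bmal1WT. No call of a named gene changed sign: 25 values did, all of them past no threshold in either fit. Slc2a2 for diet in Hep-Bmal1KO became 0.0319 with DESeq2, 0.03181 with its size factors, 0.002787 without a filter, 0.02302 in males, 0.01593 in females, -0.03739 to 0.03359 with a replicate number left out, and 0.05636 without the libraries that go against their label, and for diet in Hep-Bmal1WT 0.09233 in females. Genotype on NC became 0.09213 in females and -0.1337 to 0.01175 with a replicate left out for Pck1, -0.0451 in males for Fbp1, and -0.1295 in males and -0.07233 to 0.171 with a replicate left out for Ppargc1a. Genotype on cdHFD became -0.02445 in males for Gckr and, for Fbp1, 0.001491 with the stricter filter, 0.04033 in females, and -0.04717 to 0.06386 with a replicate left out. The interaction became 0.01732 (Gckr), 0.0647 (G6pc), -0.04423 (Slc2a2), and 0.08488 (Slc37a4) in females, 0.02143 in males (Fbp1), and with a replicate left out -0.08452 to 0.002304 (Slc37a4) and -0.1345 to 0.01914 (G6pc).

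Counts of called genes among the 9 moved as follows, and the cause was not tested. For genotype on NC 1 was called in females in place of 5. For genotype on cdHFD 5 were called without a filter, and 5 without the libraries that go against their label, in place of 3. For the interaction 1 was called in males (Gckr) and 1 without those libraries (Gys2), in place of 0. For single ZTs the count without those libraries was 15 on NC and 7 on cdHFD, and 2 on cdHFD with the 8 livers of each ZT fitted alone. Leaving out 1 replicate number gave 2 to 3 on NC in place of 6, 0 to 1 on cdHFD in place of 1, and 1 to 2 for sex in place of 4. Rhythmic genes in Hep-Bmal1KO on NC numbered 1 by the cosinor test, by JTK_CYCLE, and by the adjusted edgeR p, and 1 to 3 with a replicate left out, in place of 2. On cdHFD they numbered 2 by JTK_CYCLE and 2 in females, and 2 to 4 with a replicate left out, in place of 4.

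In the CircaCompare model, after adjustment over all genes, 0 amplitude differences between genotypes were called on NC or cdHFD, 0 phase differences and 2 mesor differences on cdHFD, and 0 amplitude differences for diet in Hep-Bmal1WT. In females, differences between genotypes numbered 3 (mesor), 1 (amplitude), and 1 (phase) on NC, and 2, 0, and 0 on cdHFD. For diet in females there was 1 amplitude difference in Hep-Bmal1WT, and 1 mesor and 1 amplitude difference in Hep-Bmal1KO. In males there was 1 amplitude difference between genotypes on NC and 0 phase differences on cdHFD. Leaving out the libraries that go against their label gave 6 amplitude differences between genotypes on NC, 0 phase differences on cdHFD, and 2 amplitude differences for diet in Hep-Bmal1KO. With a replicate left out, amplitude differences numbered 1 to 3 (genotype on NC), 0 to 1 (genotype on cdHFD), and 1 to 2 (diet in Hep-Bmal1WT), phase differences 0 to 1 for genotype on each diet, and mesor differences 2 to 4 for diet in Hep-Bmal1KO.

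No paired analysis was possible because each liver came from a separate mouse and the labels pair no mice. Ppargc1a was read from as few as 6 counts in a liver, so depth limits it most. Single ZTs rest on 4 livers per genotype.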
